A study of Rattus norvegicus with 24 samples.

Results

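The untreated INS1 cells were represented by 6 of the 24 arrays of the series, chosen by the group given in their labels: 3 arrays of 24h_Ctrl and 3 of 6h_Ctrl. INS1 is a rat insulinoma-derived cell line that secretes insulin and often stands in for the pancreatic β-cell in culture. The cells had been plated for 48 h before the start of the experiment and then received neither Givinostat, a lysine deacetylase inhibitor, nor the cytokines IL-1β and IFN-γ, and were harvested 6 h or 24 h later. The other 18 arrays held cells given Givinostat at 125 nM (24h_Giv_Ctrl, 6h_Giv_Ctrl), the cytokines (24h_Cyt, 6h_Cyt; IFN-γ at 0.1 ng/ml with IL-1β at 150 pg/ml), or both, at the same 2 times, with Givinostat added 1 h ahead of the cytokines. All cells were of the same tumour line, so the profile below is that of a proliferating rat cell line and not of islets. The deposited design text calls the 3 arrays of a group technical replicates, and no label says that they came from separate cultures. Each n = 3, SD and p-value below therefore covers the spread between arrays, which may be technical, and may not cover that between cultures.

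MicroRNAs (miRs) are short RNAs cut from a hairpin precursor, from its 5p or its 3p side (arm). Bound to an Argonaute protein, a miR pairs with messenger RNAs mainly through its seed, bases 2 to 8 from the 5′ end, and lowers their stability and translation. miRs with the same seed form families with shared targets, and hairpins that lie close together are often cut from a common transcript. In β-cells, miR-375 and miR-7 are known as endocrine-enriched regulators of secretion and growth, and the let-7 family is known for its rise during differentiation and for restraining growth signalling.

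The following mature sequences, from the RefSeq table of rat assembly GRCr8, carry the results below. The seed is in capitals. The first set shows the endocrine miRs miR-7a-5p and miR-375-3p, then the let-7 family with its shared seed, because these miRs led the resting profile.

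miR-7a-5p: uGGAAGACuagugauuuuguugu
miR-375-3p: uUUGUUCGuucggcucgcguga
let-7a-5p: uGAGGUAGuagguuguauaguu
let-7b-5p: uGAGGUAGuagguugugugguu
let-7c-5p: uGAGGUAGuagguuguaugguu
let-7d-5p: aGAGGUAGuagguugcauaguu
let-7e-5p: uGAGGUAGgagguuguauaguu
let-7f-5p: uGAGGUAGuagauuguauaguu
let-7g-5p: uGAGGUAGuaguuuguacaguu
let-7i-5p: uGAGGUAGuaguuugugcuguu
miR-98-5p: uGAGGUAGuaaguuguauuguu

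The 9 let-7 sequences differed from one another by 1 to 6 letters. let-7c-5p differed by 1 letter from let-7a-5p and by 1 letter from let-7b-5p, so the probes of these members may share signal, which was not tested. The next set shows the miR-29 and miR-30 families and single miRs described in the comparison of 24 h with 6 h. miR-30b-5p and miR-335, which belong to the same comparison, are named only.

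miR-29a-3p: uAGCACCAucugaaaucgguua
miR-29b-3p: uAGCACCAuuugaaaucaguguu
miR-29c-3p: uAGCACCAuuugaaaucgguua
miR-30a-5p: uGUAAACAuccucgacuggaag
miR-30c-5p: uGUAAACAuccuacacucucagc
miR-30e-5p: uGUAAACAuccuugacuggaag
miR-384-5p: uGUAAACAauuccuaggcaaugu
miR-23b-3p: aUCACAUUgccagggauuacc
miR-324-3p: cCACUGCCccaggugcugcugg
miR-1949: uAUACCAGgaugucagcauaguu
miR-129-5p: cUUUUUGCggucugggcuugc
miR-96-5p: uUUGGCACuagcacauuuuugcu
miR-340-5p: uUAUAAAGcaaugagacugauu
miR-3099: uAGGCUAGaaagagguugggga

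The last set shows the miRs that varied most between arrays of the same group. They hold stretches of alternating C and A, or of U and G.

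miR-466b-2-3p: aUAUACAUacacacauacaca
miR-466b-3p: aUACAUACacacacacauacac
miR-466c-3p: uAUACAUGcacacauacacac
miR-466b-5p: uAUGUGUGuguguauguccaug

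Each miR was measured by 16 spots per array, and its value was the mean log2 signal of these spots after quantile normalization. The labelled cell type was checked first. miR-375-3p lay at 10.14 ± 0.13 (SD, n = 3) at 24 h and 10.16 ± 0.17 at 6 h, and miR-7a-5p at 10.84 ± 0.10 and 10.78 ± 0.23. Both were well above background on all 6 arrays, and their summed signal (log2) ranged from 11.46 to 11.64 at 24 h and from 11.36 to 11.72 at 6 h. Markers of other cells were at background on all 6 arrays: the liver miR miR-122-5p, 7 of 7 blood cell miRs including miR-451-5p and miR-223-3p, 2 of 2 endothelial miRs and 3 of 3 exocrine pancreas miRs. The other arm of the liver hairpin, miR-122-3p, was well above background on all 6, at 6.35 ± 0.09 at 24 h and 6.31 ± 0.20 at 6 h. Of 7 muscle miRs, miR-1-3p, miR-133a-3p and 4 others were at background and miR-206-3p was not, at 6.95 ± 0.17 at 24 h and 6.96 ± 0.23 at 6 h. Of 5 fibroblast miRs, miR-214-3p was well above background on 1 array of each time and the other 4 on none. In whole-culture RNA, fewer cells with a miR and less of it per cell cannot be told apart.

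The scanner marks each spot that is well above background, and detection of a miR on an array required the mark on 8 or more of the 16 spots. Of the 758 miRs, 128 (16.9%) reached this on all 6 arrays, 589 on none and 41 on some. The number per array was 148, 150 and 134 at 24 h and 159, 137 and 134 at 6 h. No miR was well above background on all 3 arrays of one time and on none of the other. At 24 h, 132 miRs were well above background on all 3 arrays, and at 6 h 130. The 4 that reached all 3 arrays only at 24 h were miR-134-3p, miR-378b, miR-504 and miR-6326, and the 2 that did so only at 6 h were miR-425-5p and the neuronal miR-124-3p. Each of these 6 was still marked on 1 or 2 arrays of the other time. The mean log2 signal of the 128 miRs ran from 6.02 to 10.81, with a median of 7.20, and the highest mean among the 589 undetected miRs was 6.06.

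The 20 brightest miRs had mean log2 signals of 9.37 to 10.81 over the 6 arrays. They included 7 of the let-7 family, 3 arms of the miR-466 group, 2 of the miR-29 family and 4 of the miRs listed as enriched in or supporting β-cells (miR-7a-5p, miR-375-3p, miR-24-3p and miR-26a-5p). Signal depends on the probe as well as on the miR, so its order is not an order of abundance. The remaining ones were miR-23b-3p, miR-16-5p, miR-1224 and miR-103-3p.

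miR-7a-5p read 10.76, 10.81 and 10.95 on the arrays of 24 h and 10.77, 10.56 and 11.02 on those of 6 h. miR-375-3p read 10.17, 9.999 and 10.25 at 24 h against 10.01, 10.12 and 10.34 at 6 h. For both miRs the 2 groups overlapped, with log2FC (24 h minus 6 h) of 0.06 ± 0.13 and -0.02 ± 0.12 (SE). let-7f-5p was the steadiest of the 20, at 10.38, 10.43 and 10.38 against 10.46, 10.39 and 10.34. miR-466b-2-3p was the least steady, at 10.28, 10.48 and 9.90 against 10.75, 9.73 and 10.39. The SD over the 6 arrays was 0.0447 for let-7f-5p and 0.379 for miR-466b-2-3p, and for both the groups overlapped.

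**Figure D1:**
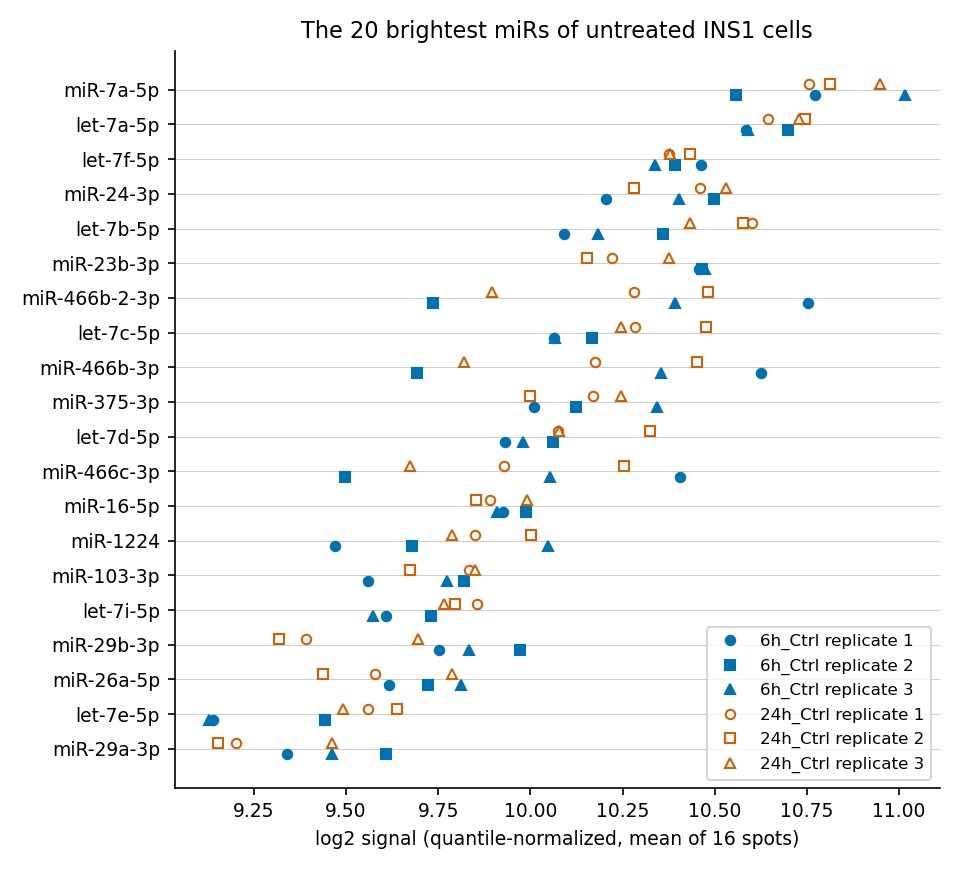
The 20 brightest miRs of untreated INS1 cells, with the log2 signal of every array on the x axis (filled blue symbols 6h_Ctrl, open orange symbols 24h_Ctrl, 1 symbol shape per replicate). The groups separate for 7 miRs, among them let-7b-5p, let-7e-5p, miR-23b-3p and miR-29b-3p. They do so for 65 of all 758 miRs (8.58%) and for 15 of the 128 detected ones (11.7%). Several of the 7 are let-7 members, whose probes may share signal. For the 3 miR-466 arms the groups overlap, and these arms spread most within a group.

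RefSeq held the mature sequence of 118 of the 128 detected miRs. These carried 96 seeds, of which 10 were shared by 2 or more miRs. Among these sequences the largest group was let-7 with 9 members. The seed of miR-16-5p had 4, and the seed of miR-30e-5p had 4, including the neuronal miR-384-5p. Detected miRs without a sequence are left out of these counts, so a seed group may be larger. Among those left out are miR-30b-5p and miR-30d-5p, listed in the miR-30 family with miR-30e-5p. The first base was U in 59.3% of the 118 sequences, against 31.3% of the 533 sequences of miRs detected on no array, a difference given here as a description.

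The profile was made up of 51 of 309 5p arms (16.5%), 56 of 313 3p arms (17.9%) and 21 of 136 miRs named without an arm (15.4%). For 277 hairpin arm pairs both arms were on the array. Pairs were counted by hairpin, so an arm encoded by 2 hairpins, such as miR-24-3p or miR-29b-3p, enters more than once. Only the 5p arm was detected on all 6 arrays in 39 pairs, with the 3p arm on none, and the reverse held in 37. Among them were miR-210-5p, miR-18a-3p and miR-34b-3p, whose other arms, members of the lists below, were detected on no array. Signal depends on the probe, so these counts do not give arm preference. Both arms were detected in 11 pairs, and neither arm was detected on any array in 167. The 11 pairs came from miR-7a-2, let-7b, let-7d, miR-324, miR-340, miR-652, both miR-129 hairpins and 3 miR-466 hairpins. miR-7a-5p is also encoded by the miR-7a-1 hairpin, whose 3p arm was detected on no array.

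On the probe positions given in the array's annotation (rn4), 41 of the 87 detected miRs with a position lay within 10 kb of another detected hairpin, in 17 clusters. These included let-7a, let-7f and let-7d at chr17:22119781-22121982, miR-23b, miR-27b and miR-24 at chr17:7350981-7351765 and miR-106b, miR-93 and miR-25 at chr12:17607991-17608454. The large imprinted cluster at chr6:134388219-134425147, expressed in many endocrine and neural cells, had 57 miRs on the array and 5 of them were detected (miR-299a-5p, miR-485-3p, miR-494-3p, miR-539-5p and miR-667-3p).

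The comparison of 24h_Ctrl with 6h_Ctrl asks how far the profile moves with culture time alone. The arrays of both times were alike: over the 128 detected miRs, the correlation between 2 arrays of different times was 0.964 to 0.994 and that between 2 arrays of the same time 0.961 to 0.995, where all arrays shared the same probes and normalization. The log2FC of the 128 miRs lay between -0.38 (miR-29b-3p) and 0.33 (miR-324-3p). Their median was 0.02, beside a median of 0.0022 over all 758. Of the 128, 72 were higher and 56 lower at 24 h, and for 87 the difference was smaller than its standard error.

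**Figure D2:**
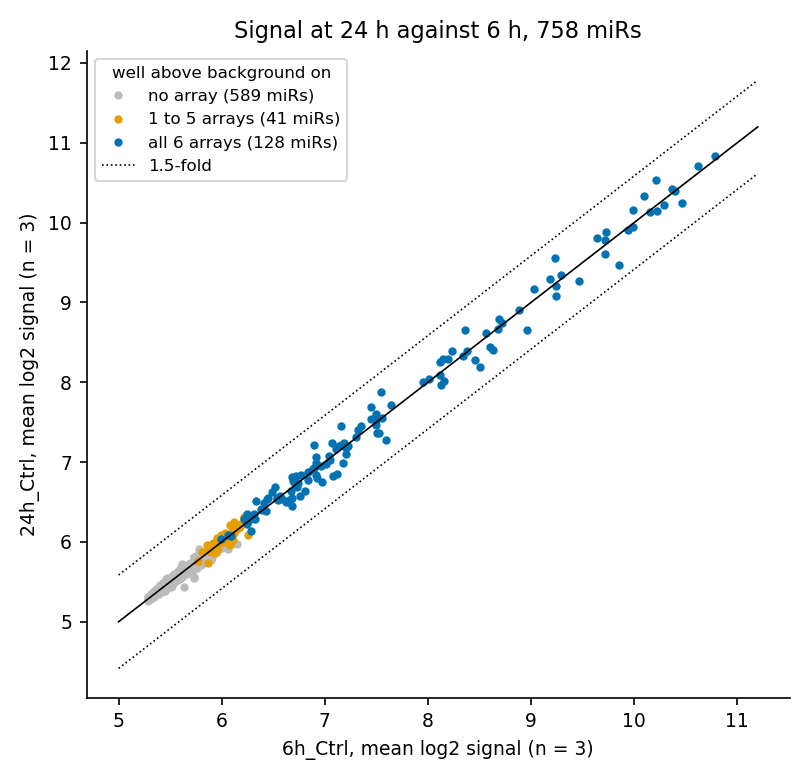
Mean log2 signal at 24 h (y axis) against 6 h (x axis) for all 758 miRs, each a mean of 3 arrays, coloured by the number of arrays on which the miR was well above background. All points lie within the dotted lines of a 1.5-fold difference.

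No miR passed an adjusted p below 0.05 with an absolute log2FC above 0.14 (a 1.1-fold difference) in limma's fit to the array means of all 24 arrays. The smallest adjusted p was 0.822. At an unadjusted p below 0.05 there were 39 of 758 (5.15%), 20 higher (2.64%) and 19 lower (2.51%) at 24 h. Among the 128 detected miRs there were 12 (9.38%), 6 in each direction. The groups did not overlap for 65 of 758 (8.58%), 29 higher (3.83%) and 36 lower (4.75%) at 24 h. This held for 15 of the 128 (11.7%), of which 7 were higher and 8 lower. The intervals show how much change the arrays leave room for. The 95% interval of the log2FC, unadjusted, lay within 2-fold for all 128 detected miRs, within 1.5-fold for 109 and within 1.2-fold for 21.

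All 24h_Ctrl arrays were hybridized on slide 4 and all 6h_Ctrl arrays on slide 2, so within these 6 arrays time and slide cannot be told apart. A fit with slide as a fixed block can link slides 2 and 4 only through 6h_Cyt, the only group with arrays on both. This fit called 0 miRs as well, with 27 at an unadjusted p below 0.05, and the log2FC had the same sign for 101 of the 128. Its intervals were wider: 105 of the 128 lay within 2-fold, 46 within 1.5-fold and 4 within 1.2-fold. In 6h_Cyt, 1 array lay on slide 4 and 2 on slide 2. Their difference, slide 4 minus slide 2, had the same sign as the untreated time difference for 43 of the 128 miRs (r = -0.43 across miRs, which share slides, probes and normalization). The log2FC of the slide block is the untreated difference minus this 6h_Cyt difference. The block and the 6h_Cyt difference are therefore not separate checks, and both rest on 1 array against 2.

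The let-7 family was the largest seed family of the profile. Of its 9 members, 8 were higher at 24 h, with a median log2FC of 0.17 and a highest of 0.33. The groups did not overlap for 5 of them, beside 15 of the 128 detected miRs (11.7%) and 8.58% of all 758. let-7b-5p, encoded at chr7:118684044-118684065 (GRCr8, plus strand), read 10.60, 10.58 and 10.43 at 24 h and 10.09, 10.36 and 10.18 at 6 h. Every array of 24 h was above every array of 6 h, with a log2FC of 0.32 ± 0.10 (SE; 95% interval 0.12 to 0.53) and the smallest unadjusted p of all miRs, 0.00409 (limma, adjusted p = 0.822).

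let-7e-5p read 9.56, 9.64 and 9.49 at 24 h and 9.14, 9.44 and 9.13 at 6 h, with a log2FC of 0.33 ± 0.14. let-7c-5p read 10.28, 10.48 and 10.24 against 10.06, 10.17 and 10.07, with a log2FC of 0.23 ± 0.11. For both, as for let-7b-5p, the lowest array of 24 h lay above the highest of 6 h. let-7d-5p and let-7i-5p also had separate groups, with log2FC of 0.17 each. let-7a-5p (0.08), let-7g-5p (0.10) and miR-98-5p (0.15) overlapped, and let-7f-5p was at -0.00087. let-7f-5p lies in a cluster with let-7a and let-7d, and differs from let-7a-5p by 1 letter. It is also encoded beside miR-98 on chromosome X, so its signal is not that of 1 cluster alone.

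The miR-29 family, which restrains genes of the extracellular matrix, was lower at 24 h in 3 of 3 members, with a median log2FC of -0.20. miR-29b-3p read 9.39, 9.32 and 9.70 at 24 h and 9.75, 9.97 and 9.83 at 6 h. The groups did not overlap, and its log2FC of -0.38 ± 0.16 (95% interval -0.72 to -0.05) was the lowest of the detected miRs. miR-29a-3p (-0.20) and miR-29c-3p (-0.17) overlapped.

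The miR-30 family, known for favouring the epithelial state of islet cells, was lower at 24 h in 5 of 5 members, with a median of -0.14 and a range from -0.32 to -0.13. miR-30b-5p read 7.29, 7.09 and 7.44 at 24 h and 7.49, 7.59 and 7.69 at 6 h. Its groups did not overlap, and the log2FC was -0.32 ± 0.10 (95% interval -0.53 to -0.11; unadjusted p = 0.00455 in limma's fit). miR-384-5p, which shares the seed, read 7.42, 7.26 and 7.40 against 7.52, 7.52 and 7.53, also without overlap.

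Across these families, the same difference in cells given Givinostat without cytokines (24h_Giv_Ctrl minus 6h_Giv_Ctrl), which share no array with the untreated cells, had a median of 0.25 with 9 of 9 higher for let-7, -0.01 with 1 of 3 higher for miR-29 and -0.05 with 2 of 5 higher for miR-30. With cytokines alone the medians were -0.04, 0.42 and 0.06, with 1 of 9, 3 of 3 and 4 of 5 higher. With both agents they were 0.02, 0.42 and 0.10, with 5 of 9, 3 of 3 and 5 of 5 higher. Slide and time were also tied, at least in part, in these groups. 24h_Giv_Ctrl lay on slides 3 and 4 and 6h_Giv_Ctrl on slides 1 and 2. 24h_Cyt lay on slides 1 and 2 and 6h_Cyt on slides 2 and 4. 24h_Giv_Cyt lay on slides 3 and 4 and 6h_Giv_Cyt on slide 3. The time differences with Givinostat alone therefore cannot be told apart from slide either. On slide 4 against slide 2 of 6h_Cyt the medians were -0.06, 0.28 and 0.17, each of the opposite sign to the untreated time difference. With slide as a fixed block, which subtracts this 6h_Cyt difference from the untreated one, the medians were 0.20, -0.47 and -0.39. Without the 2 arrays that stand apart (24h_Ctrl replicate 2 and 6h_Ctrl replicate 1) the medians of the untreated time difference were 0.13, -0.20 and -0.16.

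**Figure D3:**
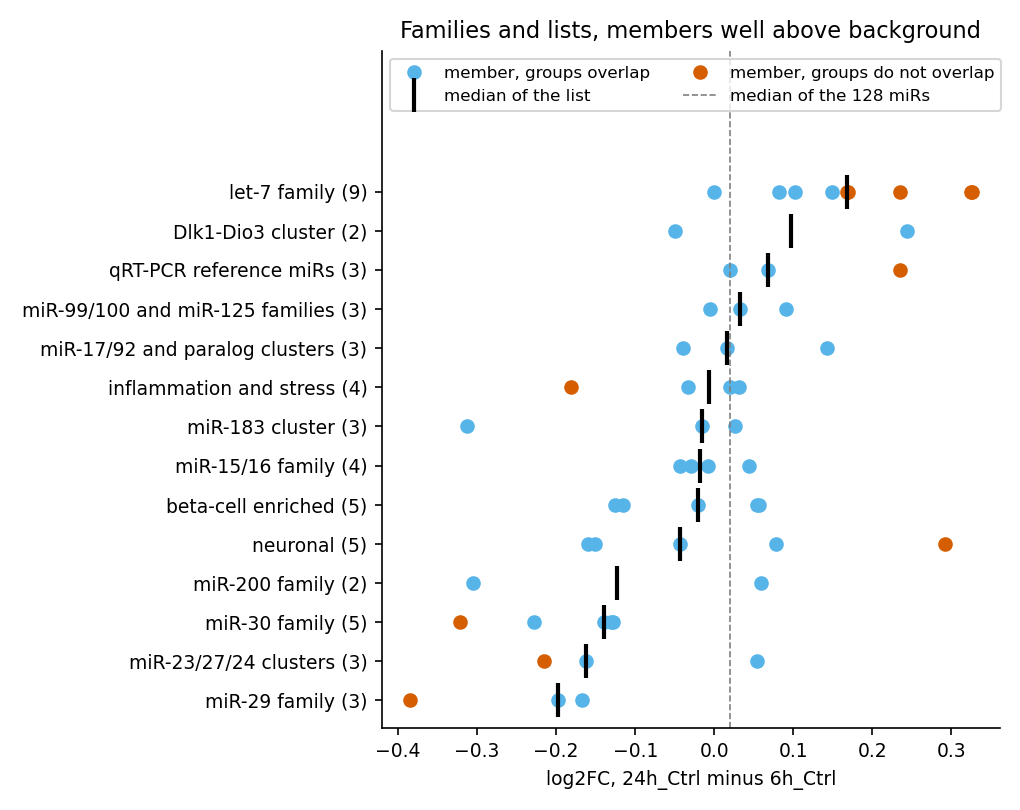
The log2FC (24h_Ctrl minus 6h_Ctrl, x axis) of every member well above background on all 6 arrays in each list, with the number of such members in parentheses, the median of the list as a black bar and members with separate groups in red-orange. The let-7 family sits to the right of the median of the 128 miRs except for let-7f-5p, and all members of the miR-29 and miR-30 families sit to its left.

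In the miR-23/27/24 clusters 3 of 5 members were detected, with a median log2FC of -0.16. miR-23b-3p alone of the 3 had separate groups. Of 8 miRs listed as enriched in or supporting β-cells, 5 were detected, with a median log2FC of -0.02 and a range from -0.13 (miR-204-5p) to 0.06 (miR-7a-5p), and the groups of none were separate. miR-184, miR-7b and miR-148a-3p were at background on all 6 arrays. In the miR-15/16 family 4 of 7 were detected (median -0.02), in the miR-17/92 and paralog clusters 3 of 11 (0.02), and in the miR-99/100 and miR-125 families 3 of 5 (0.03). In the miR-17/92 list the detected ones were the 3 members of the miR-106b cluster.

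Of 10 miRs tied to inflammation and stress, 4 were detected: miR-21-5p, miR-146b-5p, miR-132-3p and miR-212-3p, with a median of -0.01. miR-21-5p had separate groups, at 7.06, 6.87 and 7.05 at 24 h against 7.09, 7.27 and 7.17 at 6 h (log2FC -0.18). Of 13 neuronal miRs, 5 were detected (median -0.04), and in the miR-200 family, which guards the epithelial state, 2 of 5 were (miR-200c-3p at 0.06 and miR-141-3p at -0.31). None of 4 miR-181 members was detected on all 6 arrays, and 2 of the 38 listed miRs of the imprinted Dlk1-Dio3 cluster were, at -0.05 and 0.24. These 2, miR-539-5p and miR-494-3p, lie in the chromosome 6 cluster described above. The list does not hold miR-299a-5p, miR-485-3p and miR-667-3p, which were also detected there.

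The study's qRT-PCR used let-7c, miR-103a and miR-423 as references. The list held these, with both arms of miR-423, and miR-107-3p as the paralog of miR-103. Of its 5 miRs 3 were detected, and miR-423-3p and miR-423-5p were at background on all 6 arrays. The log2FC was 0.23 for let-7c-5p, 0.07 for miR-103-3p and 0.02 for miR-107-3p. In none of these lists did a member pass the adjusted threshold in the fit to array means.

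The 16 detected miRs with the smallest p, 8 in each direction, had absolute log2FC of 0.07 to 0.38. They were chosen by p in this comparison, so their values here are a description. Besides the let-7 members, those higher at 24 h were miR-324-3p, miR-1949, the neuronal miR-129-5p, miR-93-5p and miR-1839-3p. miR-324-3p, encoded within the coordinates of Acadvl at chr10:55233413-55233434 (GRCr8, plus strand), read 7.96, 7.87 and 7.79 at 24 h and 7.38, 7.63 and 7.64 at 6 h. Its groups were separate, with a log2FC of 0.33 ± 0.10 (95% interval 0.11 to 0.54).

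Those lower at 24 h were miR-30b-5p, miR-23b-3p, miR-325-3p, miR-22-3p, miR-29b-3p, miR-335, miR-96-5p and miR-340-5p. miR-23b-3p, encoded within the coordinates of Aopep at chr17:1819405-1819425 (minus strand), read 10.22, 10.15 and 10.37 at 24 h against 10.46, 10.47 and 10.47 at 6 h, a log2FC of -0.22 ± 0.07. The 3 arrays of 6 h differed by less than those of 24 h, and the groups were separate.

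Of these 16 miRs, 15 had a log2FC of the same sign in the Givinostat arrays without cytokines, beside 77 of the 128 detected miRs. The exception was miR-325-3p, at -0.23 without and 0.05 with Givinostat. With cytokines alone the sign was the same for 1 of the 16, miR-325-3p, beside 49 of the 128, and with both agents for 3 of the 16, beside 52 of the 128. For example, the time difference with cytokines alone was -0.08 for let-7b-5p, -0.51 for miR-129-5p, 0.57 for miR-29b-3p and 0.24 for miR-96-5p. For the difference between slide 4 and slide 2 in 6h_Cyt the sign was the same for 2 of the 16, miR-324-3p and miR-129-5p. The time difference with Givinostat minus that without was tested for all 758 miRs and none was called (limma, smallest adjusted p = 0.998; 17 at an unadjusted p below 0.05, 2.24%).

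**Figure D4:**
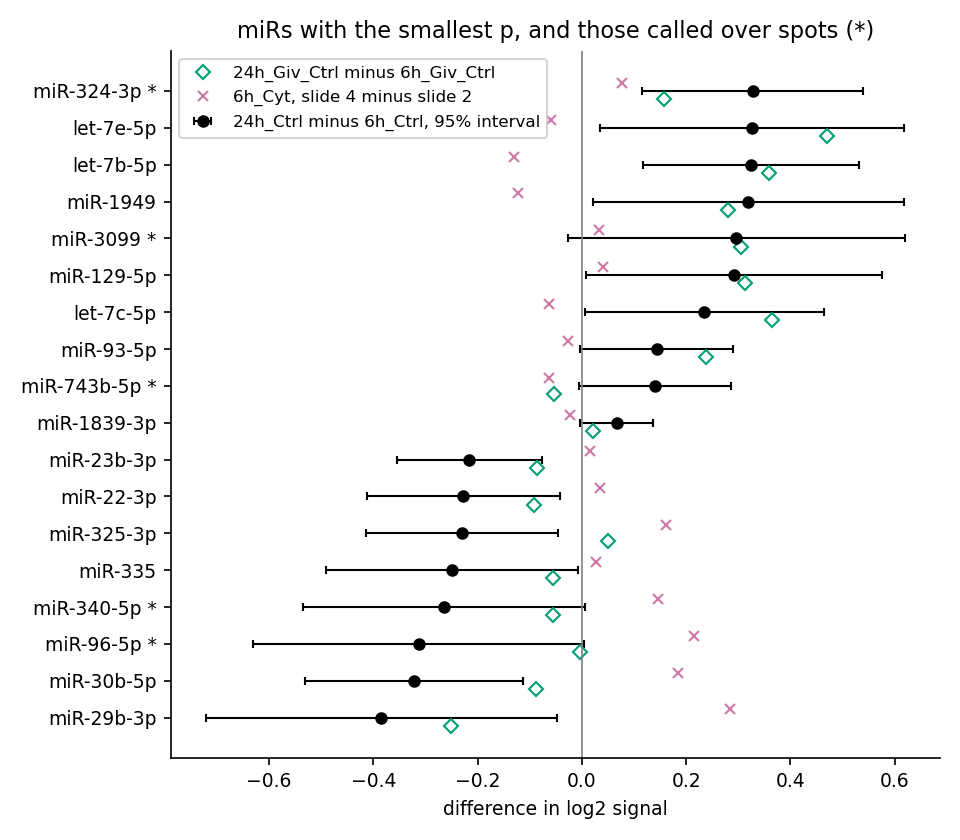
Differences in log2 signal (x axis) for the 16 detected miRs with the smallest p and 2 further miRs called over the spots; black points and bars are 24h_Ctrl minus 6h_Ctrl with the 95% interval, green diamonds 24h_Giv_Ctrl minus 6h_Giv_Ctrl, and purple crosses the 6h_Cyt array on slide 4 minus the mean of the 2 on slide 2. An asterisk marks the 5 miRs called over the spots. For most miRs the diamond lies on the same side of 0 as the black point and the cross on the other.

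When all 16 spots entered as separate values with a pooled correlation (0.0373), the form of test in the study's methods, limma called 5 of 758 miRs (0.66%), 3 higher (0.396%) and 2 lower (0.264%) at 24 h. The spots of 1 array all read 1 labelled RNA, so they repeat the measurement and not the culture. miR-340-5p (adjusted p = 1.43e-10) read 6.88, 6.68 and 6.99 at 24 h and 6.98, 7.19 and 7.18 at 6 h. miR-96-5p (adjusted p = 9.59e-08) read 8.23, 7.96 and 8.39 against 8.36, 8.62 and 8.54. The groups of both overlapped, and the intervals of the array means reached from -0.54 to 0.0066 and from -0.63 to 0.0049.

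miR-3099 (adjusted p = 6.11e-06) read 7.50, 7.54 and 7.32 at 24 h and 6.91, 7.34 and 7.22 at 6 h, again with overlap. miR-324-3p (adjusted p = 0.000722) was the only one of the 5 with separate groups. miR-743b-5p (adjusted p = 0.00665) was detected on 0 of the 6 arrays, so its log2FC of 0.14 is a difference in background-level signal. With the same test, the time difference with Givinostat minus that without was called for 3 miRs (0.396%), which were miR-340-5p, miR-96-5p and miR-743b-5p.

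Arms and cluster partners of these miRs had the following log2FC (24 h minus 6 h). Beside miR-324-3p at 0.33, miR-324-5p from the same hairpin was at 0.07 ± 0.17. Beside miR-340-5p at -0.26, miR-340-3p was at -0.01 ± 0.09. Beside let-7b-5p at 0.32, let-7b-3p was at -0.02 ± 0.05, with a 95% interval from -0.13 to 0.10. Beside miR-129-5p at 0.29, the 3p arms of its 2 hairpins were at -0.04 and -0.16.

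In the miR-183, miR-96 and miR-182 cluster, known from sensory and endocrine cells, miR-96-5p was at -0.31 ± 0.15. miR-183-5p was at -0.02 ± 0.11 and miR-182 at 0.03 ± 0.04, and both were among the 3 steadiest detected miRs, with SDs over the 6 arrays of 0.0293 and 0.0432. In the miR-23b cluster, miR-27b-3p was at -0.16 ± 0.09 and miR-24-3p at 0.05 ± 0.11 beside miR-23b-3p at -0.22. miR-24-3p is also encoded beside miR-23a on chromosome 19, so its signal is not that of the miR-23b cluster alone. let-7e-5p was at 0.33 and its cluster partner miR-99b-5p at -0.01 ± 0.14. The differences between arms and between cluster partners were not tested.

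The spread within the groups is described next. For the 128 detected miRs the median SD between the 3 arrays was 0.11 at 24 h and 0.15 at 6 h. Their median absolute log2FC was 0.07. It is a difference between means of 3 arrays, so its like measure is the SE of the log2FC, with a median of 0.14. A single axis held 77.2% of the variance of the deviations of these miRs from their group means, and the next 10.9%. The scores on it were 1.44 for 24h_Ctrl replicate 2 and 2.31 for 6h_Ctrl replicate 1, and -0.54, -0.90, -1.65 and -0.66 for the others. Only 1 array of each time had a positive score, and these are called the arrays that stood apart. By distance from 0, 6h_Ctrl replicate 2 (-1.65) lay further out than 24h_Ctrl replicate 2.

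The 4 miRs with the highest loading were miR-466b-2-3p, miR-466b-5p, miR-466c-3p and miR-466b-3p, which lie within the coordinates of Sfmbt2 on chromosome 17 (miR-466b-2-3p at chr17:72942475-72942495, GRCr8, minus strand). miR-466b-5p read 9.04 and 9.20 on the 2 arrays that stood apart and 8.28 to 8.67 on the other 4. The next were miR-764-5p, miR-210-5p, miR-32-3p, miR-485-3p, miR-207 and miR-1188-3p. Over these 10 the mean deviation was 0.27 on 24h_Ctrl replicate 2 and 0.43 on 6h_Ctrl replicate 1.

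The miRs at the other end were miR-652-5p, miR-141-3p, miR-212-3p, miR-30a-5p, miR-101b-3p, miR-290, miR-96-5p, miR-200c-3p, miR-331-3p and miR-26b-5p, with mean deviations of -0.15 and -0.26 on those arrays. miR-141-3p read 8.43 and 8.68 on them and 8.64 to 9.19 on the other 4. None of the 20 miRs at the 2 ends had separate groups in time. They were picked for their spread within the groups, which favours overlap, and the mean deviations restate that choice.

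The letters ACACA or GUGUG, searched in the mature strand alone, occurred in 5 of the 9 sequences known for the high end, in 0 of 10 at the low end and in 16 of the 118 detected (13.6%). These letters were chosen after the sequences were seen. Array brightness, as the 75th percentile of the signal of the 117 miRs detected on all 24 arrays, was 347, 271 and 347 at 24 h and 416, 320 and 279 at 6 h. The 2 arrays that stood apart had the lowest and the highest of these values, and their part in the spread was not tested. Without both arrays limma called 0 miRs between the times, with 48 at an unadjusted p below 0.05.

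**Figure D5:**
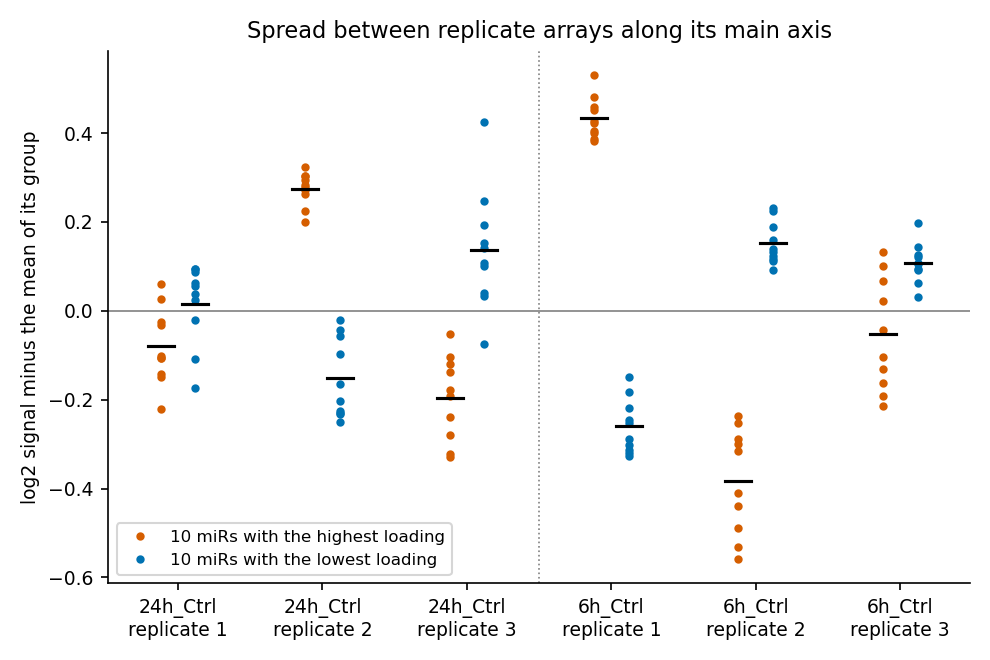
Deviation of the log2 signal from the mean of its own group (y axis) on each of the 6 untreated arrays, for the 10 miRs at either end of the main axis of spread (points) with their means (black bars). By their selection on this axis, the orange points are high on 24h_Ctrl replicate 2 and 6h_Ctrl replicate 1 and the blue points low on both.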

How the data were processed

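RNA of INS1 cells enriched for miRs was labelled with Cy3 and hybridized to 24 one-colour Agilent rat miRNA arrays. The authors deposited 1 scanner file per array (Feature Extraction 10.7.3.1 per the file headers) with the linear intensity of each spot, not normalized between arrays, and marks such as well above background. They also deposited a table of normalized log2 values for the series, used here only as an alternative.

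For each array the median foreground intensity of the 12128 miR spots entered, with no background subtracted. Control spots (434 negative, 281 positive) stayed out, and no spot was saturated. After quantile normalization and log2, the 16 spots of each of 758 miRs were averaged per array. The main test was limma 3.58.1 in R 4.3.3 (lmFit, eBayes) on these averages, in 1 model of all 24 arrays with 8 group means. Adjusted p-values are Benjamini-Hochberg values over the 758 miRs, and 95% intervals are unadjusted. The fit of the study's methods, which treats spots as separate values with a pooled correlation, stands next to it. Precision is set by the small number of arrays, 3 in a group.

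The miRs named are the 20 brightest, those called by either fit, the 8 higher and 8 lower with the smallest p among miRs detected on every array of a time, the 3 with the largest called interaction, and members of the lists. The miRs detected unevenly, the arm and cluster partners and the miRs at the ends of the main axis were named after their values were seen. The arrays, lists and tests were chosen with earlier results of these data known. In simulated data for this comparison (758 miRs, 200 of them changed), limma called 86% of changes of 0.3 (log2), 100% of 0.5, 98% of 1 and 100% of 2. Among detected miRs 36.4% of the 11 changes of 0.3 were called. For changes of 0.5, 1 and 2 it was 100% of 8, 80% of 5 and 100% of 8. The number of false calls was 2. The simulated noise was independent between miRs and arrays, with no slide effect and no shared axis of spread, unlike the real arrays. Alternatives covered signal, background, normalization, spots, slide, thresholds, the deposited table and arrays left out. matplotlib 3.10.9 with Python 3.11.15 drew the figures.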

Additional observations from a re-analysis of the deposited data

How the results depend on the processing

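The count of miRs called between 24h_Ctrl and 6h_Ctrl was 0 under most alternatives. It was 5 with the pooled correlation over spots, and 1, miR-324-3p, with the processed signal scaled on the detected miRs and with the total gene signal, where most residual variances were 0 and the fit is unreliable. The count was 0 with each array left out in turn, with 27 to 69 at an unadjusted p below 0.05, the highest without 6h_Ctrl replicate 1. For the time difference with Givinostat minus that without, 3 were called with the pooled correlation and 0 with each array left out.

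Deviations of same-numbered arrays from their group means correlated at -0.60, -0.75 and 0.22 over the 128 detected miRs. The highest correlation, 0.78, was between 24h_Ctrl replicate 2 and 6h_Ctrl replicate 1, the 2 arrays that stood apart. The main axis of spread dominates these deviations. The correlations therefore cannot show whether same-numbered arrays came from a common culture or batch. With the replicate block 0 miRs were called, with 39 at an unadjusted p below 0.05.

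The number of intervals within 1.2-fold was 52 with the pooled correlation, 43 with normexp, 44 with quantile normalization over the 6 untreated arrays, 33 with these arrays alone in the fit, 11 without normalization, 6 and 2 with the processed signal scaled on detected and on all miRs, 4 with the total gene signal, 4 with slide as a fixed block and 15 to 29 with an array left out. Within 1.5-fold it was 64, 31, 56 and 46 for the processed signal (detected, all), the total gene signal and the slide block, and 90 to 115 with an array left out. Within 2-fold it was 92 to 128 over all alternatives and 119 to 128 with an array left out. The detected miRs numbered 156, 100 and 86 when at least 1, at least 12 or all 16 spots were required, and 128 to 130 with an array left out.

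The median log2FC of the miR-29 family was -0.36, -0.38, -0.36, -0.36 and -0.47 with the processed signal (detected, all), the total gene signal, no normalization and the slide block. That of the miR-30 family was -0.32, -0.33, -0.30 and -0.39 with the processed signal (detected, all), the total gene signal and the slide block. The slide block gave -0.33 for the miR-200 family, -0.11 for the miR-183 cluster and -0.17 for the inflammation list. No normalization gave -0.081 for the miR-183 cluster. The processed signal gave -0.17 (all) for the β-cell list and -0.20 (detected) and -0.21 (all) for the neuronal list. The causes were not tested. Under every alternative run, 8 or 9 of the 9 let-7 members were higher and none of the miR-29 or miR-30 members. Of 755 values for single miRs, 1 turned its direction: miR-93-5p was at -0.00039 with outlier spots left out, an alternative chosen after seeing the data. Many alternatives could not change these log2FC. They were arrays of other groups or slide 1 left out, the pooled correlation, the replicate block, and fits to the untreated arrays or detected miRs alone. The same direction under those was fixed in advance.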
